A study of Mus musculus with 8 samples.

Results

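Olig1, Olig2, Nefl, Nefm, Insm1, Tagln3 and Rnf165 are 7 genes of the nervous system. They comprise genes picked for wide differences between 2 clonal lines of mouse embryonic stem (ES) cells, and paralogs of such genes. They were chosen by their FPKM levels (defined below) in the lines and found by exact gene symbol in the authors' deposited table, where each has 1 of 23284 gene entries. Because those levels chose the genes, the differences between the lines are given below as a description, with the authors' calls but no new test. The doxycycline contrasts were not what the genes were picked for, but they use the same group values, so their tests are not fully independent of the choice. The groups were clone 6, which carries a Ctcfl transgene (the transgenic clone), with doxycycline and without it, and clone 7, which lacks the transgene (the non-transgenic clone), with doxycycline and without it. Doxycycline, the inducer of such transgenes, was given at 2 µg/ml for 48 h. All groups had been kept on mouse embryonic fibroblast feeders and were replated without them for those 48 h, and the strain is labelled as mixed. Each of the 4 groups holds 2 libraries, 8 in all, from 2 experiments. Each line is 1 clone, so the transgene and any other difference between the clones cannot be told apart.

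Olig1 and Olig2 are basic helix-loop-helix (bHLH) transcription factors of the ventral neural tube, where Olig2 specifies motor neuron and oligodendrocyte progenitors. Nefl and Nefm encode the light and medium neurofilament subunits, which assemble with the heavy subunit Nefh, internexin alpha (Ina) and peripherin (Prph) into the filaments of axons. Insm1 is a zinc finger repressor of neurogenic and endocrine progenitors that recruits the histone demethylase Lsd1, Tagln3 is a neuronal relative of the actin-binding protein transgelin, and Rnf165 is a ubiquitin ligase related to Arkadia (Rnf111) that promotes Smad signalling in motor neurons. None of these genes is a marker of undifferentiated ES cells.

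On genome build mm10, Olig2 (chr16:91225550-91228677, plus strand, 2 exons) and Olig1 (chr16:91269769-91271939, plus strand, a single exon) are neighbours with 41091 bases between them. Nefl (chr14:68083884-68087737, plus strand, 4 exons) and Nefm (minus strand, 3 exons) are also neighbours, with 31807 bases between their deposited entries. The entry of Nefm, chr14:68119545-68131371, has the same span as that of A230070E04Rik, so it may be wider than Nefm itself. Insm1 (chr2:146221997-146225018, plus strand) has 1 exon and Tagln3 (chr16:45711230-45724531, minus strand) has 4. All 7 are protein coding, and exon numbers and strands are from the GENCODE M21 annotation of the same assembly. In that annotation a longer Nefm transcript runs across Nefl on the opposite strand, and the sources used here do not give the strand setting of the authors' counting, so reads from these neighbours may not be fully separated.

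Promoters of 2 of the 7 genes, Olig2 and Tagln3, were at hand in RefSeq (GRCm38.p6, the assembly of mm10). Olig2 stood far higher and Tagln3 lower in the transgenic clone, but the 2 promoters are shown because no others of the 7 were at hand. Each runs from 250 bases before to 50 bases after the RefSeq transcript start, 5′ to 3′ on the gene's own strand (chr16:91225300-91225599, plus strand, for Olig2 and chr16:45724482-45724781, minus strand, for Tagln3). Capitals mark matches to the searched motifs.
Olig2: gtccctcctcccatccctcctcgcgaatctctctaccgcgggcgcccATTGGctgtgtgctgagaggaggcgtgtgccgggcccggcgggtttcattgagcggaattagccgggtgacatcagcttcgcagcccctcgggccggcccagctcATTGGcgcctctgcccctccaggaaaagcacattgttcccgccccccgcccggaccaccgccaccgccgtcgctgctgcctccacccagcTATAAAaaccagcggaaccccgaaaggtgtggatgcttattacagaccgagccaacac
Tagln3: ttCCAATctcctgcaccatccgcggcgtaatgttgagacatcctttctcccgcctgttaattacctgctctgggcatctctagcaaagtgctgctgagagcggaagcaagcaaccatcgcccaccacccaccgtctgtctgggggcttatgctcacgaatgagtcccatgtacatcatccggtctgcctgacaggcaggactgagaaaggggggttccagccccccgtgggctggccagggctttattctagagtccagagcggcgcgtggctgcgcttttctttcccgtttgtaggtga
The motifs, searched on both strands, were the CCAAT box (CCAAT), the TATA box (TATAAA), the E-box that bHLH factors read (CANNTG), a core of the Ctcf motif, named here without its letters, and the left part of the site of the neuronal repressor Rest (TTCAGCACC). The Olig2 window holds 2 matches to the CCAAT box on its minus strand, which begin 203 and 98 bases before the start. It also holds the letters TATAAA, which begin 8 bases before the start. The Tagln3 window holds 1 CCAAT box, 248 bases before the start, and no match to the others. No match overlapped another, and whether any of them acts in its promoter was not tested. Of 32851 promoters of this length, 37.4% hold CCAAT, 13.6% TATAAA, 72.3% CANNTG, 2.43% the Ctcf core and 0.371% the Rest letters. The Olig2 window is 65.0% G and C with 25 CG dinucleotides and the Tagln3 window 57.3% with 15, against medians of 52.7% and 7 over all these promoters.

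The deposited levels are FPKM (fragments mapped to a gene, scaled for transcript length and for all mapped fragments), with 1 value per gene and group that combines the 2 libraries, so no level carries an SD. FPKM summed to between 717813 and 737443 per group, and 12033 to 12092 genes reached 1 FPKM. The labelled cell type was checked against its markers. Pou5f1, the core pluripotency factor, was between 1011 and 1116 FPKM, and all 10 ES cell markers reached 1 FPKM. The 15 fibroblast markers, genes of the feeder layer, summed to 587 and 567 FPKM in the transgenic clone with and without doxycycline, against 436 and 434 FPKM in the non-transgenic clone. Of the 14 at 1 FPKM or more, 11 stood higher in the transgenic clone without doxycycline, as did 6116 of 12360 among all genes. The lowest of the 15 fibroblast markers was Lum, between 0.314 and 0.506 FPKM. The part of these markers in the values below was not tested. In bulk RNA, fewer cells of a type and less RNA per cell cannot be told apart.

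The Olig genes had the widest contrast between the lines. Olig1 stood at 49.1 FPKM with and 54.5 FPKM without doxycycline in the transgenic clone, against 0.293 and 0.312 FPKM in the non-transgenic clone. Olig2 stood at 25.8 and 30.5 FPKM in the transgenic clone with and without doxycycline, against 0.0784 and 0.0854 FPKM in the non-transgenic clone. Both were thus expressed in the transgenic clone and close to 0 in the other, whether or not doxycycline was present. The folds, transgenic over non-transgenic, were 168 with and 174 without doxycycline for Olig1, and 329 and 357 for Olig2. They divide by levels under 1 FPKM and their size is uncertain: with 1 FPKM added to every value the log2 differences without doxycycline were 5.40 for Olig1 and 4.86 for Olig2, in place of 7.45 and 8.48. By absolute log2 difference Olig2 and Olig1 ranked 31 and 32 of 13047 genes tested between the lines without doxycycline. In that ranking a gene at 0 FPKM in either line counts as larger than any measured ratio. Only 13018 of the tested genes were above 0 FPKM in both lines, so most genes ranked ahead of the Olig genes had no measurable ratio. Olig1 exceeded Olig2 in all groups, by 1.90 and 1.79 times in the transgenic clone with and without doxycycline and by 3.74 and 3.66 times in the non-transgenic clone, where the ratio rests on levels near 0. Their paralog Olig3, a factor of the dorsal neural tube, stayed between 0.0929 and 0.140 FPKM in all 4 groups.

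Nefl was the most abundant of the 7 genes in both lines. It stood at 61.9 and 89.0 FPKM in the transgenic clone with and without doxycycline, against 22.4 and 24.3 FPKM in the non-transgenic clone, folds of 2.76 and 3.66. Nefm stood at 2.67 and 4.02 FPKM in the transgenic clone, against 2.41 and 2.47 FPKM in the non-transgenic clone, folds of 1.11 and 1.62. The neighbours on chromosome 14 therefore did not stand apart to the same degree. The Nefl level was 23.1 and 22.2 times that of Nefm in the transgenic clone with and without doxycycline, and 9.28 and 9.85 times in the non-transgenic clone.

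Insm1, Tagln3 and Rnf165 were lower in the transgenic clone. Rnf165 lies on another chromosome than the others (chr18:77456110-77565136, minus strand, 8 exons). Insm1 stood at 1.86 and 2.78 FPKM in that line with and without doxycycline, against 6.00 and 5.09 FPKM in the non-transgenic clone. Tagln3 stood at 1.01 and 1.59 FPKM in the transgenic clone, against 6.07 and 6.27 FPKM in the non-transgenic clone. Rnf165 stood at 1.09 and 1.07 FPKM in the transgenic clone, against 5.70 and 5.18 FPKM in the non-transgenic clone. For each of the 3 genes, both transgenic groups were below both non-transgenic groups. The log2 differences, transgenic minus non-transgenic, were -1.69 with and -0.87 without doxycycline for Insm1, -2.59 and -1.98 for Tagln3, and -2.39 and -2.27 for Rnf165.

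The authors' deposited test (a Cuffdiff-type test, called at a q-value under 0.05) called 2 of the 7 genes higher (Olig1 and Nefl) and 2 lower (Tagln3 and Rnf165) in the transgenic clone without doxycycline, where 1.37% of all 13047 genes tested were called (0.797% higher and 0.575% lower). With doxycycline it called the same 2 higher and 3 lower (Tagln3, Rnf165 and Insm1), where 1.52% of 13064 genes were called (0.857% higher and 0.666% lower). Olig2 and Nefm were called in neither, although the fold of Olig2 was the larger of the Olig pair. As the genes were picked for these contrasts, the counts are no evidence about them, also when set beside the shares of all genes.

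**Figure D1:**
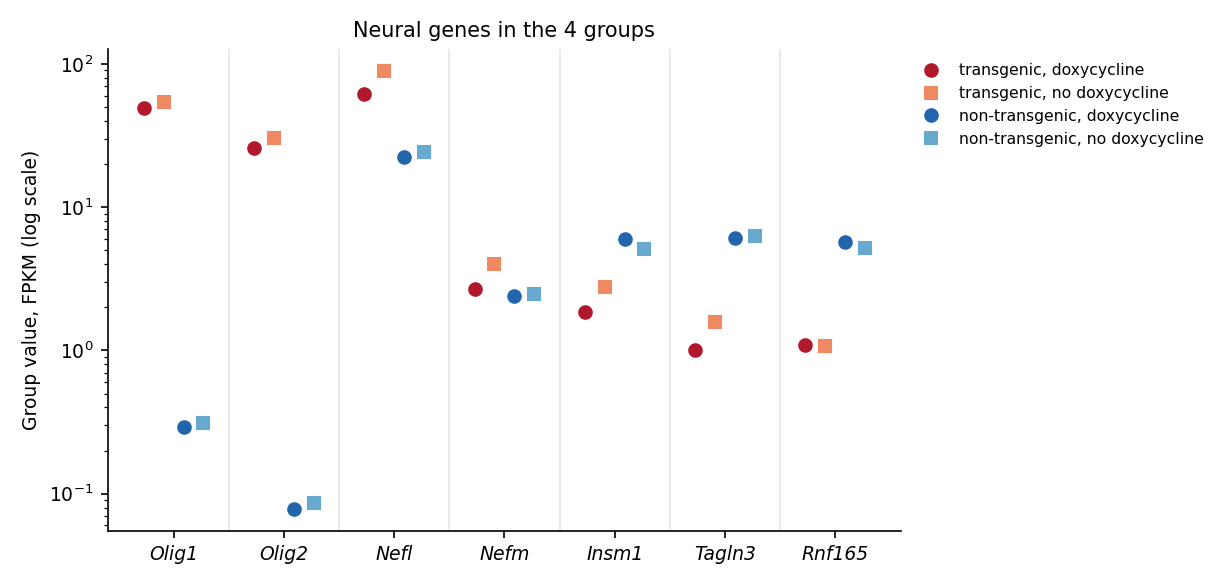
Levels of the 7 neural genes in FPKM (log scale), with 1 point per group: transgenic clone with and without doxycycline in red and orange, non-transgenic clone in dark and light blue. Each point is the authors' value for 2 libraries and has no error bar; Olig1 and Olig2 separate the lines most, Nefm least.

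The next question was whether doxycycline changed these genes in the transgenic clone. Ctcfl itself, a relative of Ctcf expressed in the germline, was at 0.995 FPKM there with and 0.403 FPKM without the drug, a log2 change of 1.30 that did not pass (q = 0.296 in the authors' deposited table), against 0.498 and 0.513 FPKM in the non-transgenic clone. Whether this entry counts the transcripts of the transgene was not tested. None of the 7 was called, where 0.108% of 13003 tested genes were (0.0923% higher and 0.0154% lower). Nefl came closest: it stood at 61.9 FPKM with and 89.0 FPKM without doxycycline, a log2 change of -0.52 (95% interval -0.87 to -0.18, p = 0.0104, q = 0.412 in the authors' deposited table). Nefm had a log2 change of -0.59 (interval -1.34 to 0.17), Insm1 of -0.57 (-1.43 to 0.29) and Tagln3 of -0.66 (-1.76 to 0.43). Olig2 had -0.24 (-0.75 to 0.27), Olig1 -0.15 (-0.55 to 0.25) and Rnf165 0.02 (-0.95 to 1.00). In the authors' deposited table the p of these 6 ran from 0.0901 for Insm1 to 0.947 for Rnf165. Thus 0 of 7 passed, with 1 at an unadjusted p under 0.05, which 1.08% of all tested genes had. Each interval is 1.96 standard errors to either side, and each standard error is the log2 change over the deposited test statistic. The deposited p does not match a normal reading of that statistic, so the 95% coverage is approximate. With standard errors taken from the p instead, the interval was -0.93 to -0.12 for Nefl and -1.24 to 0.09 for Insm1. The intervals of Nefm, Insm1, Tagln3 and Rnf165 are wide, and these 4 genes were low in the transgenic clone.

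Although no gene passed, 6 of the 7 had a value below 0 with doxycycline in the transgenic clone, and 4 (Nefl, Nefm, Insm1 and Tagln3) were below -0.5 on the log2 scale. Of 12981 tested genes above 0 FPKM in both transgenic groups, 49.9% were below 0 and 2.06% below -0.5, and the median was 0.0003. The median of the 7 genes was -0.52. This contrast shares the transgenic group without doxycycline with the contrast that the choice used, so its direction is not independent of the choice, and no test was made of the 7 together. For Nefl and Nefm the value with doxycycline lay nearer the non-transgenic clone than the value without it, and for Insm1 and Tagln3 it lay farther from that line.

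In the non-transgenic clone, where doxycycline met no transgene, none of the 5 tested genes was called or had an unadjusted p under 0.05. Nefl stood at 22.4 and 24.3 FPKM with and without doxycycline (log2 change -0.12, interval -0.59 to 0.35) and Insm1 at 6.00 and 5.09 FPKM (0.24, interval -0.54 to 1.01). The log2 change was 0.14 for Rnf165, -0.05 for Tagln3 and -0.03 for Nefm. In the authors' deposited table the p of the 5 genes ran from 0.444 for Insm1 to 0.940 for Nefm. Olig1 and Olig2 were too low for a test there. Among all 12908 tested genes 0% were called and 14 had an unadjusted p under 0.05.

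**Figure D2:**
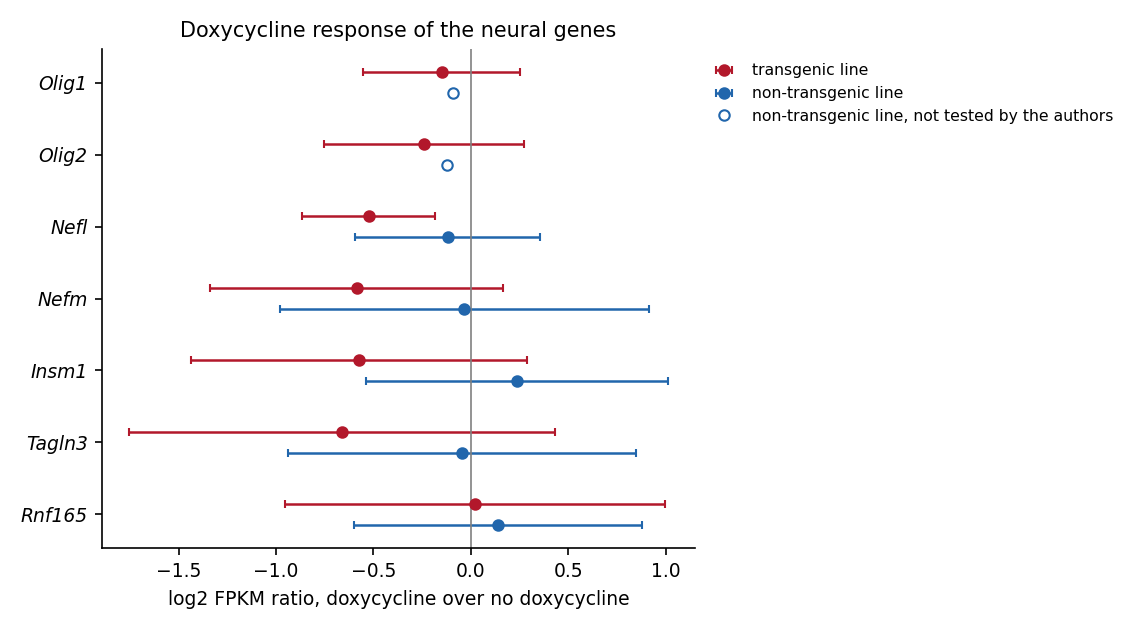
Log2 ratio of FPKM, doxycycline over no doxycycline, for each gene in the transgenic clone (red) and the non-transgenic clone (blue). Bars are 95% intervals from the deposited test statistic and open points had no test; the interval of Nefl in the transgenic clone is the only one that leaves out 0.

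A two-sided normal test on the difference of the log2 changes, fitted for 12638 genes and adjusted by Benjamini-Hochberg over them, asked whether the response differed between the lines. For Nefl the difference, transgenic minus non-transgenic, was -0.41 (95% interval -0.99 to 0.18). For Insm1 it was -0.81 (-1.97 to 0.35), for Tagln3 -0.62 (-2.03 to 0.80), for Nefm -0.55 (-1.76 to 0.66) and for Rnf165 -0.12 (-1.34 to 1.11). None of the 5 passed, each with an adjusted p of 1.00, where 0.142% of all genes were called and 58 genes had an unadjusted p under 0.05. All 5 intervals hold 0, and these differences too are made from the group values that chose the genes. With so few libraries the normal test is approximate.

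Of 8 paralogs of the 7 genes, 6 were tested between the lines and 1 was called, Tagln. Of all genes tested, 1.52% were called between the lines with and 1.37% without doxycycline. Among the neuronal filaments, Nefh stood at 11.4 and 6.98 FPKM in the transgenic clone with and without doxycycline, against 12.7 and 12.5 FPKM in the non-transgenic clone. Ina stood at 59.2 and 60.9 FPKM in the transgenic clone, against 80.5 and 69.2 FPKM in the non-transgenic clone, and Prph at 14.5 and 14.9 FPKM against 12.9 and 17.3 FPKM. The authors' deposited test called none of these 3 in any of the 4 comparisons, and their lowest p was 0.052, for Nefh between the lines without doxycycline. As a share of the summed FPKM of these 5 filament genes, Nefl was 41.4% and 50.7% in the transgenic clone with and without doxycycline, against 17.1% and 19.3% in the non-transgenic clone. Ina was 39.6% and 34.6% in the transgenic clone, against 61.5% and 55.0% in the non-transgenic clone, so Ina led in the non-transgenic clone and Nefl in the transgenic clone.

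Of the relatives of Tagln3, Tagln stood opposite to it. Tagln, which encodes the smooth muscle protein transgelin, stood at 219 and 188 FPKM in the transgenic clone with and without doxycycline, against 106 and 101 FPKM in the non-transgenic clone. It was called higher in the transgenic clone both with (q = 0.00812) and without doxycycline (q = 0.0295) in the authors' deposited table. Tagln2, the broadly expressed transgelin, stood at 155 and 125 FPKM in the transgenic clone, against 114 and 114 FPKM in the non-transgenic clone, and was not called. Rnf111, the Arkadia ubiquitin ligase to which Rnf165 is related, was between 11.8 and 12.8 FPKM in all 4 groups (p of 0.640 or more in the authors' deposited table in all 4 comparisons). Insm2, the paralog of Insm1, was at or under 0.0322 FPKM. None of these paralogs was called for doxycycline in either line.

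**Figure D3:**
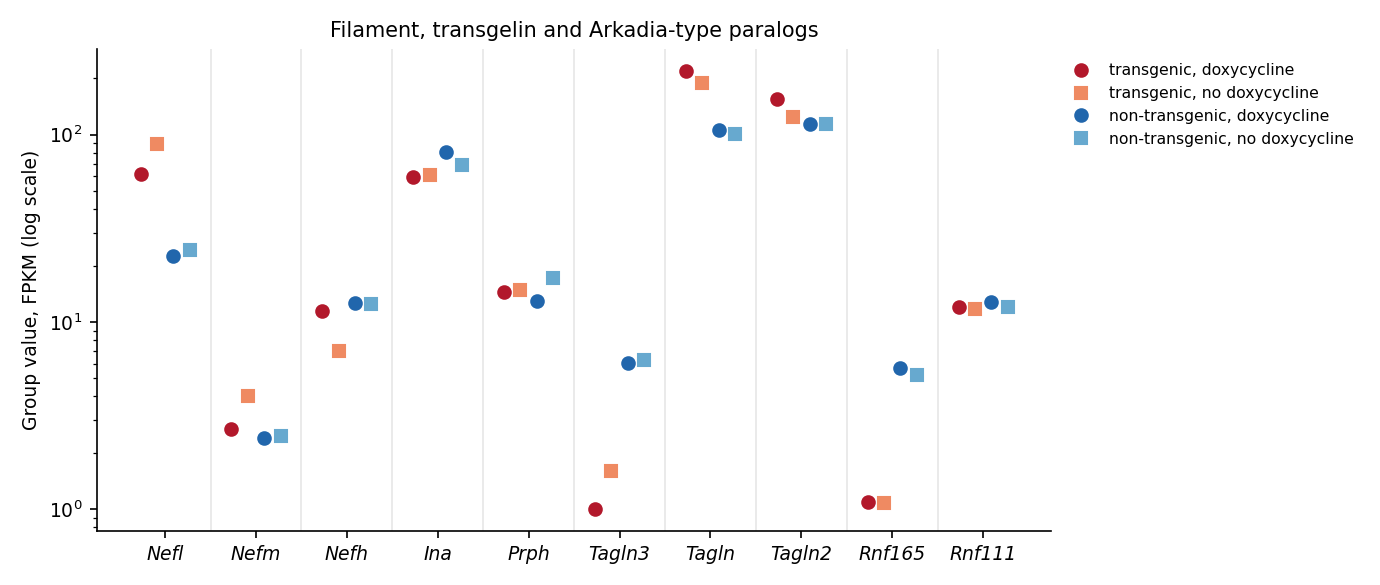
Levels in FPKM (log scale) of the neuronal filament genes, the transgelins and the Arkadia-type ligases, 1 point per group as in the plot of the 7 genes. Nefl and Ina change places between the lines, Tagln lies opposite to Tagln3, and the points of Rnf111 lie between 11.8 and 12.8 FPKM.

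Position was not used in the choice, so the surrounding genes were read next. Within 500000 bases of the 7 genes lay 60 other gene entries, of which 33 reached 1 FPKM. In the authors' deposited table none of those tested was called, neither between the lines (0 of 36 without and 0 of 36 with doxycycline, with 5 and 3 at an unadjusted p under 0.05, which 6.59% and 7.9% of all tested genes had) nor for doxycycline (0 of 37 in the transgenic and 0 of 35 in the non-transgenic clone, with 0 at such a p in each). All log2 differences between the lines given next are without doxycycline, for genes at 1 FPKM or more.

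Around Olig1 and Olig2, 15 other genes had log2 differences from -0.46 to 0.45, against 7.45 and 8.48 for the Olig genes. The genes on the Olig1 side were Ifnar2, Il10rb, Ifnar1 and Ifngr2, which encode receptors of interferons and interleukin 10, followed by Tmem50b, Gart, Son, Donson, Cryzl1 and Itsn1. The nearest of them, Ifnar2, lies 101 kb away and stood at 9.44 and 8.40 FPKM in the transgenic clone with and without doxycycline, against 8.41 and 8.60 FPKM in the non-transgenic clone. On the Olig2 side lay Gcfc1, Synj1, 1110004E09Rik, Urb1 and 2610039C10Rik. Urb1 had the lowest value, -0.46.

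Around Nefl and Nefm, the 4 other genes Cdca2, Kctd9, Dock5 and A230070E04Rik had differences from -0.29 to 0.29. A230070E04Rik has the same deposited span as Nefm. It stood at 1.86 and 2.67 FPKM in the transgenic clone, against 1.63 and 2.19 FPKM in the non-transgenic clone. Near Insm1, the genes Rin2, Naa20, Crnkl1 and Ralgapa2 had differences from -0.73 (Rin2) to 0.08. Next to Tagln3, Abhd10 and Phldb2 were at 0.21 and 0.34, opposite in sign to Tagln3. Around Rnf165, the genes Hdhd2, Katnal2, Pias2, 8030462N17Rik, Haus1, Atp5a1, Pstpip2 and 5430411K18Rik had differences from -0.74 (Katnal2) to 0.77 (Pstpip2).

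**Figure D4:**
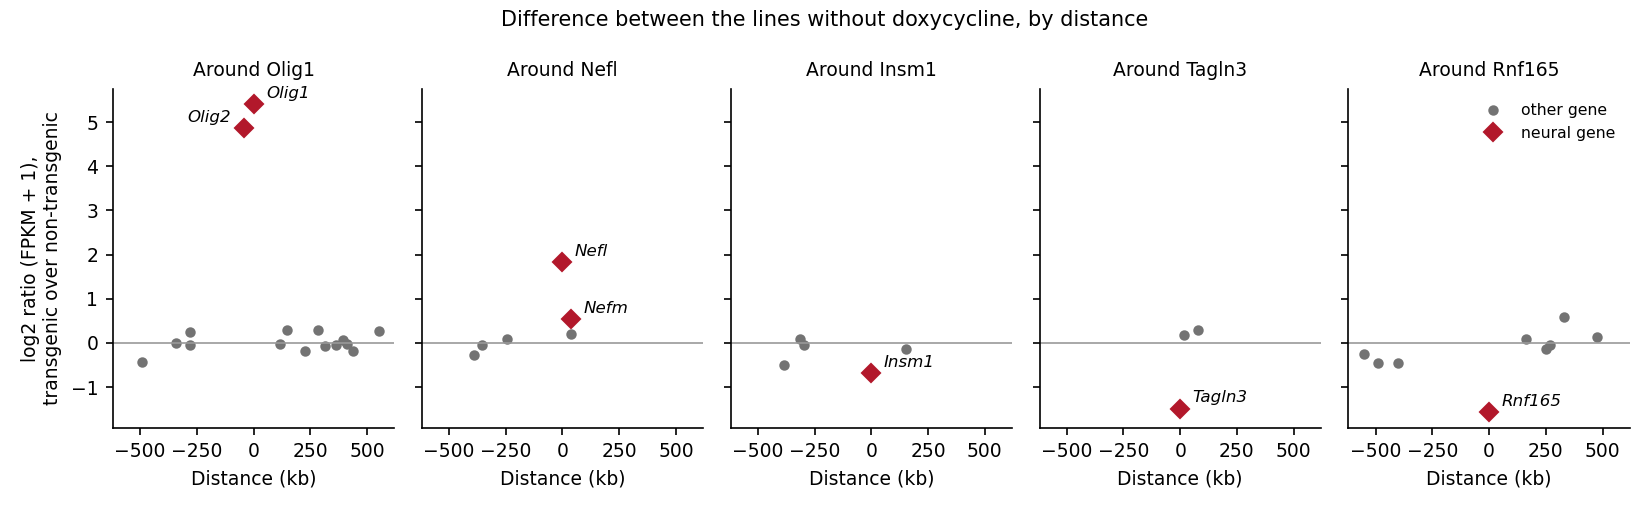
Log2 ratio of FPKM + 1, transgenic over non-transgenic clone without doxycycline, against the distance in kb between gene middles, for genes at 1 FPKM or more around 5 loci. Red diamonds are the 7 neural genes and grey points their neighbours, which lie within 1 of 0 on the log2 scale.

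The levels of other neural genes set these values in context. Of 17 proneural and neuronal bHLH factors, 16 were under 1 FPKM in every group, among them Neurog1 and Neurog2. Neurod1, a bHLH factor of neurons and endocrine cells, was the exception: it stood at 2.15 and 2.91 FPKM in the transgenic clone with and without doxycycline, against 5.20 and 4.64 FPKM in the non-transgenic clone, and was called lower with doxycycline (log2 -1.27, q = 0.0200 in the authors' deposited table). Its 4 groups stood in the same order as those of Insm1. The next most abundant factors of this list were Atoh8, Neurog3 and Bhlhe22.

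Genes of the ventral neural tube and the hedgehog pathway, which induces Olig2 there, were low or flat. Shh was at or under 0.0108 FPKM, and Nkx6-1 and Nkx2-2, which act with Olig2 in ventral progenitors, were under 1 FPKM in all groups. The most abundant members were the signal transducer Smo at 23.8 and 28.8 FPKM in the transgenic clone, against 24.9 and 26.8 FPKM in the non-transgenic clone, followed by the receptor Ptch1, the inhibitor Sufu and the effector Gli1. Ptch1 stood at 14.5 and 12.6 FPKM in the transgenic clone, against 21.8 and 21.2 FPKM in the non-transgenic clone. Gli1 stood at 9.27 and 8.60 FPKM in the transgenic clone, against 14.8 and 14.1 FPKM in the non-transgenic clone. None of the 13 tested members was called between the lines, where 1.52% of all genes were with and 1.37% without doxycycline. The q of these members was 0.0540 or more without doxycycline in the authors' deposited table. Their median log2 difference (FPKM + 1) was 0.08 without doxycycline, against -0.002 for all genes.

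Oligodendrocyte lineage genes other than Olig1 and Olig2 were mostly low. Of 18 such genes 10 were under 1 FPKM in every group. Sox10, which acts with Olig2 in oligodendrocyte precursors, stood at 0.562 and 0.596 FPKM in the transgenic clone, against 0.274 and 0.484 FPKM in the non-transgenic clone, and Pdgfra, the receptor that marks these precursors, was between 0.972 and 1.35 FPKM. The most abundant were Zfp488, Myrf (under its older name Gm98), Cnp and Ugt8a. Myrf, the myelin regulatory factor, stood at 20.5 and 24.1 FPKM in the transgenic clone, against 36.0 and 39.9 FPKM in the non-transgenic clone. It was called lower with (q = 0.00812) and without doxycycline (q = 0.0344) in the authors' deposited table. Zfp488 was at 31.9 and 39.8 FPKM in the transgenic clone, against 45.4 and 40.8 FPKM in the non-transgenic clone. Of 11 members tested with and 10 without doxycycline no other was called, where 1.52% and 1.37% of all genes were. The list's median was 0.04 without doxycycline.

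Among 32 genes of the early neural plate and neural progenitors, 0 were called higher and 2 lower in the transgenic clone, both with doxycycline. Without it 0 of 19 tested were called. Over all genes tested the shares called were 1.52% with and 1.37% without doxycycline. Pax6, an eye and forebrain factor, stood at 0.991 and 0.916 FPKM in the transgenic clone with and without doxycycline, against 3.28 and 2.30 FPKM in the non-transgenic clone (q = 0.00812 with and 0.110 without doxycycline in the authors' deposited table). Pou3f1, a factor of the primed epiblast and early ectoderm, stood at 54.0 and 73.6 FPKM in the transgenic clone, against 95.7 and 97.3 FPKM in the non-transgenic clone (q = 0.00812 with and 0.753 without doxycycline in the authors' deposited table). Zic2, Otx2 and Nes, also among the most abundant of the list, were not called. Sox1, the earliest neural plate marker, was under 1 FPKM in every group. The list's medians were -0.35 with and -0.17 without doxycycline, against -0.02 and -0.002 for all genes.

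No gene of the 24 in the neuronal differentiation list was called in the 4 comparisons. Between the lines 21 were tested with and 20 without doxycycline, where 1.52% and 1.37% of all genes were called. With so few tested, a count of 0 says little about the list. Of the 16 at 1 FPKM or more, 12 stood lower in the transgenic clone without doxycycline, as did 6244 of 12360 among all genes. The list's median was -0.29, the lowest of the lists with more than 1 such gene. The most abundant were Uchl1, a neuronal deubiquitinase, at 67.3 and 70.6 FPKM in the transgenic clone, against 106 and 108 FPKM in the non-transgenic clone, and Stmn2, Tubb3 and Crmp1. Tubb3, the neuronal tubulin, stood at 37.6 and 37.4 FPKM in the transgenic clone, against 48.6 and 51.7 FPKM in the non-transgenic clone. Dcx, a marker of young neurons, was at or under 0.0378 FPKM in all groups. Nefl, higher in the transgenic clone, lay opposite to most of this list.

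Of the intermediate filament list (8 genes, 7 tested) none was called, and the mesenchymal filament Vim was its most abundant member at 268 and 260 FPKM in the transgenic clone, against 228 and 227 FPKM in the non-transgenic clone; Ina, Nes and Des followed. Astrocyte and radial glia markers (8 genes, led by Glul, Slc1a3, Aldh1l1 and Fabp7) had none called, and Gfap was under 1 FPKM. With so few tested, the absence of calls says little about either list. Of 15 neural crest genes, led by Foxd3, Snai1, Twist1 and Ngfr, 1 was called, against 1.52% of all genes with and 1.37% without doxycycline. It was Foxd3, a crest and ES cell factor. Foxd3 stood at 21.4 and 23.2 FPKM in the transgenic clone, against 42.4 and 41.4 FPKM in the non-transgenic clone (q = 0.00812 with and without doxycycline in the authors' deposited table). The crest median was 0.42 with and 0.07 without doxycycline.

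Lists around the partners of Insm1 and Rnf165 held no called gene. None of the 15 Rest and Lsd1 corepressor genes was called. Hdac1, Sin3b, Kdm1a (Lsd1 itself) and Hdac2 led that list, with Kdm1a between 93.6 and 96.8 FPKM in the 4 groups and Rest between 60.3 and 66.5 FPKM. None of the 15 Arkadia-type Smad regulators was called. Of these Tgif1, Skil, Smad7 and Ski were the most abundant, and Skil, a Smad repressor that Arkadia degrades, was between 39.2 and 45.9 FPKM. None of the 22 Notch genes was called, with Hes6, Rbpj, Notch3 and Numbl the most abundant. Between the lines 13 Rest and Lsd1 genes, 14 Smad regulators and 18 Notch genes were tested, with and without doxycycline alike. Of all genes tested, 1.52% were called with and 1.37% without doxycycline. With so few tested, the absence of calls says little about these lists. Their lowest q was 0.0740 in the authors' deposited table, for Notch3, higher in the transgenic clone with doxycycline. The medians of these lists were 0.04, -0.01 and -0.08 without doxycycline.

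Of all 217 listed genes other than the 7, the authors' deposited test called 10 between the lines with doxycycline (6.54% of 153 tested) and 6 without it (3.92% of 153), against 1.52% and 1.37% of all genes. Those not yet named were ES cell and fibroblast markers. Nanog and Zfp42, pluripotency factors, were called higher in the transgenic clone with and without doxycycline, at 128 and 97.6 FPKM against 68.5 and 57.9 FPKM and at 88.3 and 58.8 FPKM against 20.1 and 18.9 FPKM. Sox2, a factor of both ES cells and neural progenitors, was called lower in both, at 121 and 105 FPKM against 196 and 168 FPKM. Acta2, the smooth muscle actin of fibroblasts, was called higher with doxycycline, at 131 against 68.1 FPKM. Utf1, Dppa5a and Tdgf1 were the most abundant ES cell markers beside Pou5f1, and S100a4, Col1a1 and Col1a2 led the fibroblast markers beside Acta2; none of these was called. Several lists were drawn up with earlier results of these data known, so these shares are no evidence about neural genes. For doxycycline 0 of these genes were called in either line, with 5 of 152 (Celf4, Esrrb, Nanog, Pou3f1 and Zfp42) at an unadjusted p under 0.05 in the transgenic clone and 0 of 150 in the other.

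**Figure D5:**
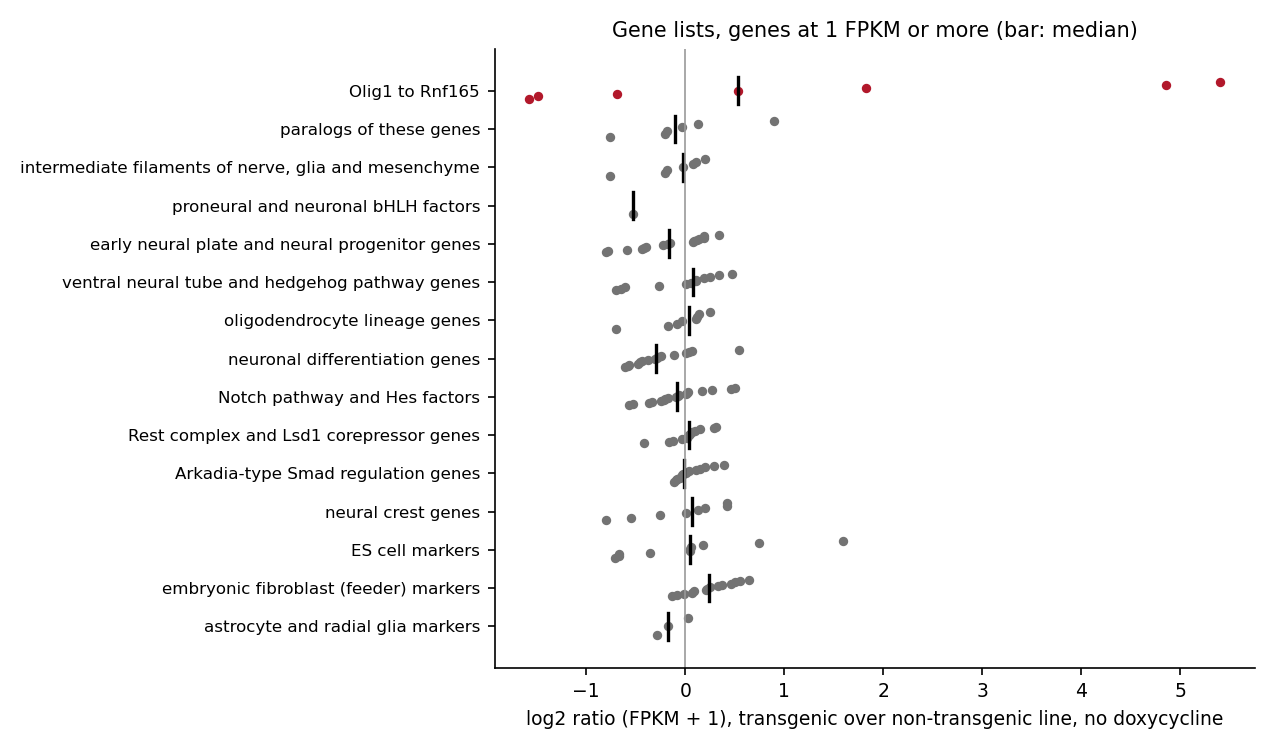
Log2 ratio of FPKM + 1, transgenic over non-transgenic clone without doxycycline, for the 7 neural genes (red) and for the genes of each list at 1 FPKM or more (grey); black bars are medians. The lists centre near 0, and the medians other than that of the 7 genes run from -0.53 (1 bHLH gene, Neurod1) to 0.24 (fibroblast markers).

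Genes with the most similar profile were sought by the Euclidean distance between log2(FPKM + 1) values of the 4 groups, each centred on its mean, among 12374 genes. Over 4 points such likeness is a description. For Olig1 and Olig2 the 3 nearest were each other (distance 0.595) and the microRNA genes Mir301b and Mir215, which stood at 38.4 and 29.1 FPKM and at 20.5 and 33.9 FPKM in the transgenic clone with and without doxycycline and were listed at 0 in the non-transgenic clone. FPKM of such short genes is uncertain. For Nefl the nearest were the chemokine Cxcl10 (0.318), 4933404O12Rik and Pkdcc. For Nefm they were Fxyd5 (0.0791), Trib2 and 0610040J01Rik, and for Insm1 Rpl10l (0.151), Slc35d3 and Cbr3. Tagln3 and Rnf165 shared Dhrs7 and the maternally expressed noncoding RNA Meg3 among their 3 nearest. Meg3 was the nearest to Rnf165 (0.103), at 66.2 and 66.7 FPKM in the transgenic clone, against 221 and 217 FPKM in the non-transgenic clone. Spink3 and Serpina3m completed the lists for Tagln3 and Rnf165. With a pseudocount of 0.1 in place of 1, 11 of the 21 places went to the same genes, and with Pearson's r as the measure 0 of 21.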

How the data were processed

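Total RNA of 8 libraries was sequenced as 75 bp single-end reads, per the labels' protocols. The authors deposited 1 table, laid out as Cuffdiff writes it: FPKM per gene and group, a test statistic (a score with no fixed range), a p-value and a q-value for each of 6 comparisons. Per the submitters' processing notes, TopHat2 2.0.8, Cufflinks 2.1.1 and build mm10 were used; the sources used here do not give their roles, the annotation, the strand setting or the normalization. Depth is unknown, and with no value per library used, libraries could be neither paired nor omitted. The q-value, checked here, equals Benjamini-Hochberg adjustment of 78127 tests of all 6 comparisons (largest difference 5.21e-07). The smallest deposited p-value is 5e-05, and the smallest q 0.00812.

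Folds were recomputed from the deposited FPKM, tested over reference. Calls are the authors' (test made, q under 0.05). The deposited p-values test a difference against a spread estimated from libraries, which the labels call biological replicates. Each line is 1 clone, so that spread holds no variation between clones of a line. Standard errors are the log2 change over the test statistic; the code of the normal test built on them was tested on simulated data with normal errors of known size, which does not check how well the test fits so few libraries. List medians use log2(FPKM + 1) of genes that reach 1 FPKM in either compared group. Deposited starts count from 0, so 1 was added. Of the listed symbols 2 were matched through RefSeq synonyms (Map2 as Mtap2, Myrf as Gm98). The genes and lists were chosen with earlier results of these data known. Named were the 7 genes, their paralogs, the 4 most abundant and all called members of each list, neighbours at 1 FPKM or more or called, and the 3 nearest profiles; others were chosen after their values were seen. Python 3.11.15, pandas 2.3.3, NumPy 2.4.6, SciPy 1.17.1 and matplotlib 3.10.9 were used.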

Additional observations from a re-analysis of the deposited data

How the results depend on the processing

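Adjusting the deposited p-values within a single comparison left 0 genes called for doxycycline in the transgenic clone, in place of 14, with all tested genes and with those at 1 FPKM or more; none of the 7 neural genes was called in any of these settings. When the standard errors came from the p-value column instead, the difference of the responses had 0 calls, against 18, with 26 at an unadjusted p under 0.05; the p of Insm1 was then 0.0771 and that of Nefl 0.223. Widening the window from 500000 to 1000000 bases brought 1 called neighbour in each comparison between the lines, the kinase gene Hunk, 770 kb from Olig1; at 250000 bases there was 0, as in the doxycycline comparisons. Of 28 log2 changes of the 7 genes none changed sign with a pseudocount of 1 or 0.1 FPKM or with upper quartile scaling. Of the 14 folds between the lines, however, a pseudocount of 1 moved 7 by over 1.5 times, and 0.1 moved both of Olig2. No paired analysis was possible because the deposited values are 1 per group, and for the same reason no library could be left out. What depth limits cannot be read from these files: FPKM under 1, as of Olig1 and Olig2 in the non-transgenic clone, may rest on few reads.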
